A study of Mus musculus with 2 samples.

Results

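The 37 genes described here serve the copying of DNA in S phase: the Mcm helicase, nucleotide synthesis enzymes, replication fork proteins, chromatin copying factors, G1/S regulators, and replication-dependent histones with their RNA-binding protein Slbp. They were picked by symbol as known members of the process, with earlier results of these data known. All 37 were found among the 32285 genes of the deposited tables. Natural killer (NK) cells, lymphocytes that kill infected or transformed cells, had been sorted from mouse spleen and profiled by droplet single-cell 3′ RNA sequencing. One group was labelled control, described as normal mice, and the other was under dietary restriction (DR), and each was 1 library. The labels used here give no number of mice, no pooling, and neither strain, age, diet composition nor sorting gate. Because each group is 1 library, no test between diets was possible and no difference below has a replicate check; intervals are 95% and cover counting error only.

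DNA replication is prepared in G1, when Cdc6 and Cdt1 load the ring formed by Mcm2 to Mcm7 onto origins, and it starts when cyclin E (Ccne1, Ccne2) and E2F factors such as E2f1 bring the cell into S phase. Pcna then clamps the polymerases to DNA, ribonucleotide reductase and thymidylate synthase supply nucleotides, and new histones are made in step with new DNA. Splenic NK cells mature from cells with Cd27 towards cells with Itgam (CD11b), and the less mature cells are known to divide more often.

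The control library held 5702 cell barcodes with a median of 7151.5 unique molecular identifiers (UMIs, each standing for 1 captured RNA molecule), and the DR library 6287 barcodes with a median of 5782. After filters, clusters with NK markers gave 4552 control and 4236 DR NK-like cells, in which 10 of 10 NK markers reached 20 counts per 1000000 UMIs (CPM) in both libraries. These cells were shallower in the DR library (median 5355 against 7048.5 UMIs). The clusters were made without the 37 genes, other replication genes and G2 and mitosis genes. Still, 1 cluster collected dividing cells, and it also held cells with B-lineage markers. Cells in which markers of other lineages (B, plasma, myeloid, dendritic and T cells) made up over 20% of lineage marker UMIs were therefore left out of the NK-like class. They numbered 41 in control and 53 in DR and are called other-lineage-marked below, and results are also given with them. In the dividing cluster this left out 36 of 100 control and 50 of 65 DR cells. The 20% limit was set after the data were seen. The 2 libraries shared 13 barcodes.

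Promoter letters are shown for a few of these genes because E2F sites were frequent among them. E2F factors are known to bind sites close to TTTCCCGC, TTTGGCGC, TTTCGCGC or TTTGCCGC. At least 1 of these forms, on either strand with overlapping matches counted, lay in the promoter window (250 bases before to 50 after the start, RefSeq, GRCm38.p6) of 8 of the 32 genes that had a window (25%) and in 2.32% of all 27025 windows. Of the 4 genes with 2 or more matches, all encode Mcm subunits (Mcm3, Mcm5, Mcm6 and Mcm7), against 0.0999% of all windows. Mcm6 had the most matches, and stretches upstream of Mcm6 (chr1:128359706-128359827, minus strand) and Mcm5 (chr8:75109344-75109508, plus strand) are shown from 5′ to 3′ with the E2F matches alone in capitals.
Mcm6: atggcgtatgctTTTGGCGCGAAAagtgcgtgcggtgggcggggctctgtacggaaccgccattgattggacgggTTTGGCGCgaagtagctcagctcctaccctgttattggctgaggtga
Mcm5: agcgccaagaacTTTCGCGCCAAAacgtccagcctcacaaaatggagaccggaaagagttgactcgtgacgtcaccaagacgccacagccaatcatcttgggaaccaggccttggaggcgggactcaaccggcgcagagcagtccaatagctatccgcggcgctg

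None of the 4 histone genes with a window held these E2F letters, which says only that they are not in that window. CCAAT, read on either strand, was in all 4 histone windows and in 15 of the 28 others, the printed Mcm6 and Mcm5 windows included, which is 59.4% of the 32 against 37.9% of all windows. TATAAA, read the same way, was in 3 of 4 histone windows and 2 of the 28 others, against 14.2% of all windows. The stretches upstream of the linker histone gene Hist1h1b (chr13:21780626-21780805, minus strand) and the core histone gene Hist1h2ab (chr13:23750979-23751087, plus strand) carry both, in capitals; these 2 were chosen after the letters were seen.
Hist1h1b: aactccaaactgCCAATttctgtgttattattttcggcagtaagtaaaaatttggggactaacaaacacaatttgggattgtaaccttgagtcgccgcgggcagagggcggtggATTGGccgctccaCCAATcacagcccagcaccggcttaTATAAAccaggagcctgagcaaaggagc
Hist1h2ab: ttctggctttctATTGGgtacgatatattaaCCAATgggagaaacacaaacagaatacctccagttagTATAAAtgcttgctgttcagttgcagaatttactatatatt

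Replication-dependent histone mRNAs are known to end in a stem-loop bound by Slbp protein in place of a poly(A) tail, so a library primed on poly(A) captures them only in part. The 16-base stem-loop was found in 4 of the 5 histone transcripts of the GENCODE vM21 annotation and is in capitals below; the 3 H2A genes shared 1 form of it.
Hist1h2ab: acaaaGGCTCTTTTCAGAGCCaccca
Hist1h2ae: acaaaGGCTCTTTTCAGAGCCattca
Hist1h2ap: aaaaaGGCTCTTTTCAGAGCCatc
Hist1h3c: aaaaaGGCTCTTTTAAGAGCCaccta

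All 5 histone genes lie on chromosome 13, and each was annotated as a short gene, such as Hist1h1b at chr13:21779883-21780625 and Hist1h3c at chr13:23744973-23745602 (both minus strand, GRCm38). Of the 60-base stretches of their transcripts, 92.9% in Hist1h2ap, 57.0% in Hist1h2ab, 42.6% in Hist1h3c and 39.2% in Hist1h2ae also occurred in another gene, against 0 in Hist1h1b and a median of 0.356% over the other 32 genes. The coding sequences of the 3 H2A genes differed by 6 to 10 of 393 bases. Reads from such stretches cannot be assigned to 1 gene, so single values of the 4 core histone rows are uncertain and Hist1h1b is the clearest of the 5.

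In NK-like cells the replication genes were lower in the DR library, most of all the histones, Pclaf, Rrm2 and Tk1, while Slbp, Fen1, Ung and Cdt1 were among the 8 that differed too little to be called. With no test possible, a call rests on size: DR at least 25% above or 20% below control, with a counting interval that leaves out equal levels. Genes averaging 5 CPM or more over the libraries were considered. By this rule 24 of 32 genes were lower in DR and 0 were higher, while over all 8983 genes 9.42% were lower and 5.99% higher. The median log2 ratio (DR over control) was -0.52 over the 32 genes and -0.04 over all genes. With the other-lineage-marked cells kept, 15 genes were lower and the median was -0.32. Since 7 of the 32 reached the minimum only through the control library, the count with no minimum is also given: 29 of 37 were lower and 0 higher, where 8.59% of all genes with UMIs in both libraries were lower and 6.92% higher. The 5 genes under the minimum were Cdc45 (5.81 CPM in control and 3.27 in DR), Pole (5.81 and 3.94), E2f1 (4.63 and 1.97; log2 ratio -1.23, interval -1.72 to -0.77), Ccne2 (4.01 and 0.947) and Cdc6 (3.34 and 0.907; -1.88, -2.59 to -1.23). Nearest above it were Uhrf1, Tk1 and Ccne1, whose values follow with their roles.

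**Figure D1:**
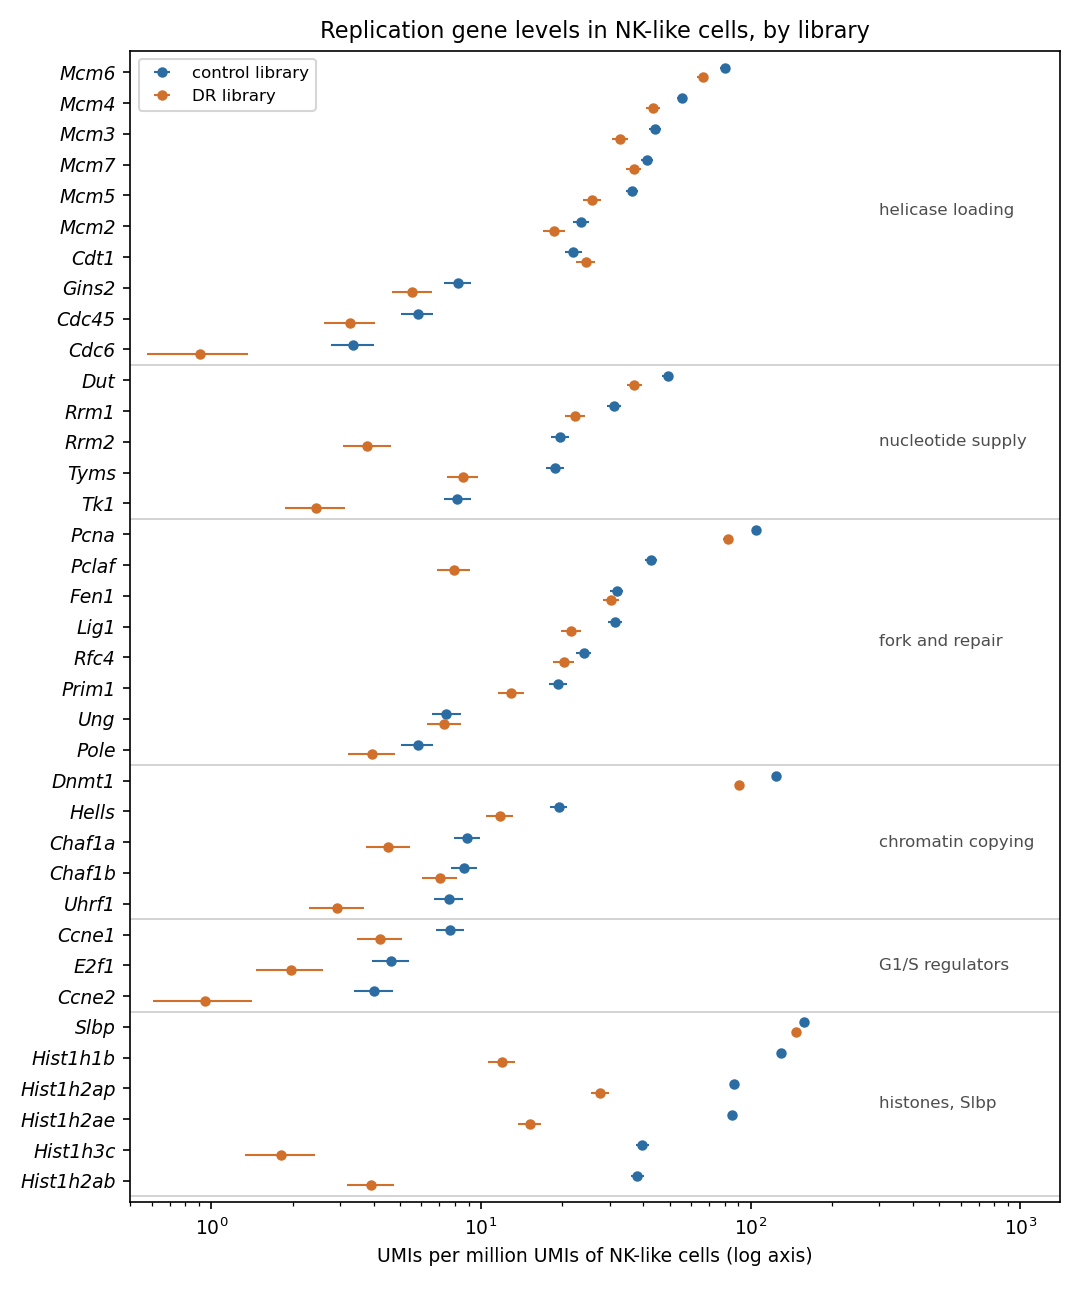
Level of each of the 37 genes in NK-like cells (x axis, CPM on a log axis), by role, with blue points for the control and orange points for the DR library and bars for exact 95% Poisson intervals. The points of Slbp and the Mcm genes lie close together, whereas those of Hist1h1b stand at 130 and 12 and those of Pclaf at 42.8 and 7.93.

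Of the 8 helicase loading genes with enough UMIs, 5 were lower in DR, with a median log2 ratio of -0.35. Mcm3, a ring subunit, stood at 44.3 CPM in control and 32.8 in DR (log2 ratio -0.43, interval -0.56 to -0.31). Mcm4 stood at 55.7 and 43.3 CPM (-0.36, -0.47 to -0.25), and Mcm2 (23.6 and 18.7) and Mcm5 (36.3 and 25.7) were also lower. Mcm6 stood at 80.0 and 66.3 CPM (-0.27, -0.36 to -0.18) and Mcm7 at 41.2 and 36.8, both under the size needed for a call. Cdt1, which loads the ring and is degraded once S phase begins, was at 22.0 and 24.5 CPM (0.15, -0.002 to 0.31), the only one of the 32 with a higher point value in DR. Gins2, part of the active helicase, had the most negative ratio of the 8, at 8.20 and 5.56 CPM (-0.56).

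All 5 nucleotide supply genes were lower, with a median of -1.13, but not by the same amount. Rrm2, the ribonucleotide reductase subunit made in S phase, stood at 19.6 CPM in control and 3.79 in DR (-2.37, -2.69 to -2.06). Its partner Rrm1, which is present through the cycle, stood at 31.1 and 22.4 CPM (-0.47, -0.62 to -0.33). The 2 subunits of 1 enzyme thus had intervals that did not overlap. Tk1, which salvages thymidine, was at 8.17 and 2.45 CPM (-1.74), and Tyms, which makes thymidylate, at 18.8 and 8.56 CPM (-1.13). Dut, which removes dUTP, was at 49.3 and 36.96 CPM (-0.42, -0.53 to -0.30).

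Among fork and repair genes 4 of 7 were lower. Pclaf, a Pcna-binding protein, stood at 42.8 CPM in control and 7.93 in DR (-2.43, -2.65 to -2.22), while Pcna itself stood at 105 and 82.3 CPM (-0.35, -0.42 to -0.27). Lig1, which joins Okazaki fragments, was at 31.5 and 21.5 CPM (-0.55), and Prim1, the primase subunit, at 19.3 and 12.9 CPM (-0.58). Not called were Fen1, a flap nuclease (31.8 and 30.4 CPM; -0.07, -0.20 to 0.07), the clamp loader subunit Rfc4 (24.0 and 20.2), and Ung, which removes uracil from DNA (7.44 and 7.30; -0.03, -0.31 to 0.25).

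Of the 5 chromatin copying genes 4 were lower. Uhrf1, which brings the maintenance methyltransferase to new DNA, stood at 7.58 CPM in control and 2.92 in DR (-1.38, -1.77 to -1.001), and that methyltransferase, Dnmt1, at 124 and 90.8 CPM (-0.45, -0.52 to -0.37). The histone chaperone subunit Chaf1a was at 8.90 and 4.54 CPM (-0.97), whereas its partner Chaf1b was at 8.65 and 7.06 CPM (-0.29) and was not called. Hells, a chromatin remodeller, was at 19.4 and 11.7 CPM (-0.73, -0.93 to -0.53). Ccne1 was the only regulator above the minimum, at 7.69 and 4.22 CPM (-0.87, -1.20 to -0.54).

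The histone group with Slbp had the lowest median ratio of any role, at -2.89, and all 5 histone rows were lower. Hist1h1b stood at 130 CPM in control and 12 in DR (-3.44, -3.62 to -3.28), which is 10.9-fold. Hist1h3c stood at 39.7 and 1.81 CPM (-4.45, -4.91 to -4.03) and Hist1h2ab at 37.98 and 3.90 (-3.28, -3.59 to -2.99). Hist1h2ae was at 85.4 and 15.1 CPM (-2.50) and Hist1h2ap at 86.7 and 27.6 (-1.65). With the other-lineage-marked cells kept, the ratio of Hist1h1b was -2.14 and that of Hist1h3c -2.10. Slbp, whose protein binds the stem-loops shown above, stood at 158 and 148 CPM (-0.10, -0.16 to -0.04) and was not called. Without the histone rows 19 of 27 genes were lower, with a median of -0.45.

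The genes were spread thinly over most cells and densely over a few. To compare cells at 1 depth, each was thinned to 3000 UMIs, which left out 247 control and 196 DR cells with fewer. A thinned NK-like cell held UMIs of 2.32 of the 37 genes on average in control and 2.11 in DR, and 11.0% and 11.1% held none. Cells with at least 8 of the 37 genes, called several-gene cells here, were 91 of 4305 in control (2.11%, Clopper-Pearson interval 1.71 to 2.59) and 25 of 4040 in DR (0.619%, 0.401 to 0.912), a ratio of 3.42. Without thinning the shares were 9.12% and 3.82%. Over the other settings tried, the ratio ran from 1.49 (at least 5 genes) to 4.87 (thinned to 2000 UMIs). With the other-lineage-marked cells kept it was 2.15. Of the 243 control and 364 DR barcodes called doublets and removed, 0 had 8 or more of these genes after thinning.

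**Figure D2:**
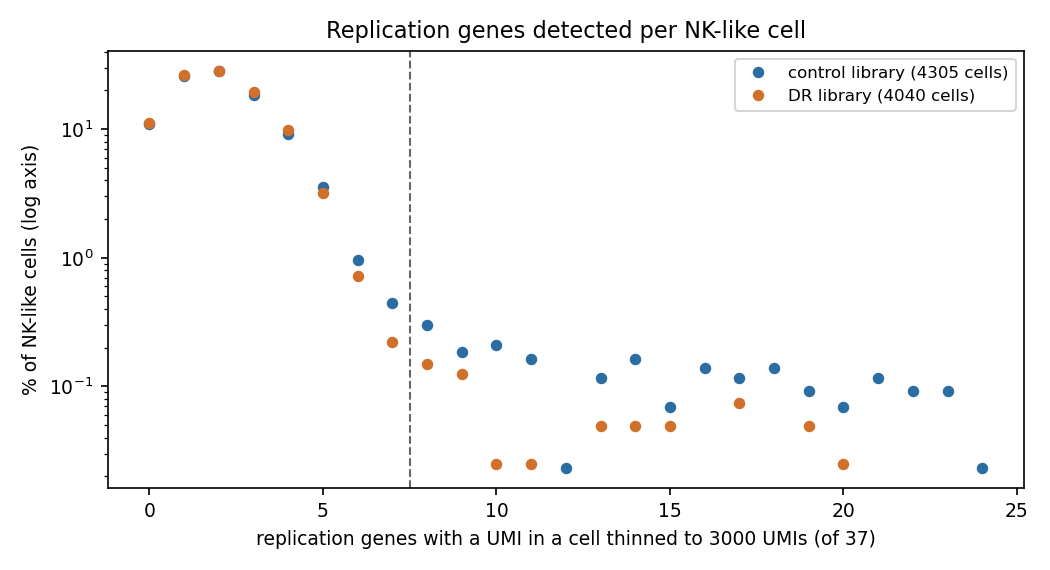
Share of NK-like cells (y axis, log scale) by number of the 37 genes detected after thinning to 3000 UMIs (x axis), with blue points for the control and orange for the DR library; the dashed line marks the limit of 8 genes, and numbers with no cell are not drawn. The libraries lie together up to 5 genes and separate from there, where 2.11% of control and 0.619% of DR cells lie beyond the line.

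The several-gene cells were chosen by these genes, so their part in the sums is a description. UMIs of the 37 genes averaged 3.05 per thinned NK-like cell in control and 2.39 in DR, of which several-gene cells gave 0.767 and 0.119 and all other cells 2.28 and 2.27. Several-gene cells held 25.1% of all UMIs of the 37 genes in control and 4.99% in DR. A several-gene cell held 36.3 such UMIs on average in control and 19.2 in DR, of which the histone group with Slbp gave 17.5 and 3.96. Any other NK-like cell held 2.33 on average in control and 2.28 in DR. Among these other cells the median log2 ratio over the 32 genes was -0.07; Pcna, for example, had 230 UMIs per 1000 control cells and 241 per 1000 DR cells, and Slbp 443 and 428. The intervals of Pclaf (-1.61), Hist1h1b (-0.55), Hells (-0.43) and Dnmt1 (-0.32) lay below 0 there, and those of Cdt1 (0.44), Dut (0.37) and Tk1 (1 UMI in control and 9 in DR, interval 0.39 to 8.69) above 0.

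How far a gene was confined to such cells varied over almost the whole possible range. For each gene, cells with 8 or more of the other 36 genes were counted, so that the gene did not choose its own cells. The H2A rows share stretches with each other, so for them this holds only in part. In control they held 152 of 160 UMIs of Hist1h3c, 92.8% of Pclaf, 82.6% of Cdc6 and 84.4% of Hist1h1b, but 4.83% of Slbp, 5.76% of Cdt1 and 5.83% of Dnmt1. In DR they held 75% of the UMIs of Hist1h3c (9 of 12), 86.5% of Pclaf, 22.5% of Hist1h1b, 1.49% of Slbp, 1.45% of Cdt1 and 1.35% of Dnmt1, and the 1 thinned UMI of Cdc6 was not among them. Other shares differed as widely, at 96.7% and 30.8% for Tk1, 68.4% and 24.2% for Rrm2, and 71.3% and 4.67% for Hist1h2ae. The point value of the share was higher in control for all 32 genes with enough UMIs. The 9 genes above 60% in control had log2 ratios between -4.45 and -1.38, and the 16 genes below 20% had ratios between -0.73 and 0.15. Share and ratio come from the same control UMIs and are not independent.

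**Figure D3:**
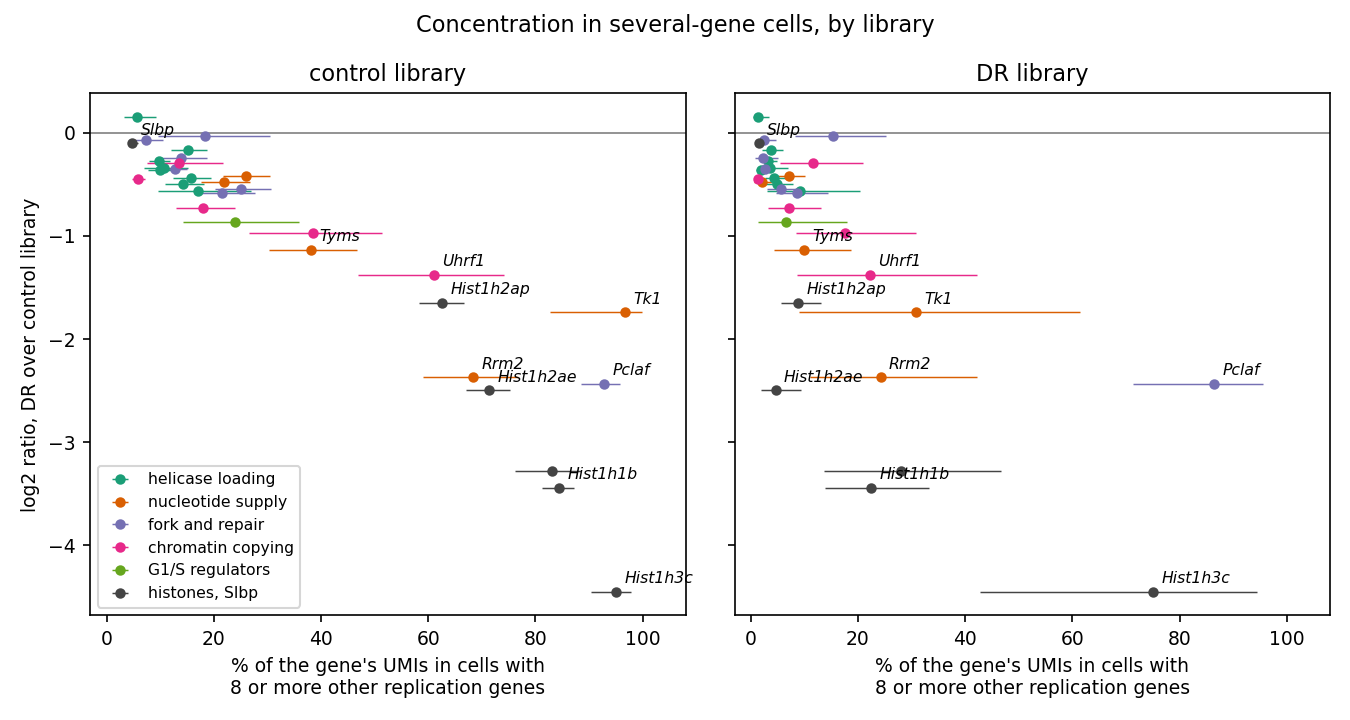
Share of each gene's UMIs that lay in NK-like cells with 8 or more other replication genes (x axis, %, exact 95% intervals) in the control (left) and DR library (right), against the log2 ratio, DR over control (y axis), for 32 genes coloured by role. Pclaf lies far right in both (92.8% and 86.5%), whereas Hist1h1b lies at 84.4% on the left and 22.5% on the right.

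Histone UMIs were frequent in the several-gene cells of the control library and rare in those of the DR library. In control 41 of 91 (45.1%, 34.6 to 55.8) held 10 or more histone UMIs and 38 (41.8%) held none. In DR 3 of 25 (12%, 2.55 to 31.2) held 10 or more and 16 (64%) held none. Every several-gene cell with 10 or more histone UMIs, 41 in control and 3 in DR, also had 5 or more of 30 G2 and mitosis genes. No such cell had fewer. A count of 0, taken as fewer than 3 cells, allows up to 3.30% of all 91 several-gene cells in control and 12% of all 25 in DR. Among the 3 DR cells with 10 or more histone UMIs this floor sets no limit. At least 5 G2 and mitosis genes were found in 52 of 91 control cells (57.1%, 46.3 to 67.5) and 9 of 25 DR cells (36%, 17.97 to 57.5), intervals that overlap. The median number of the 37 genes per several-gene cell was 14 in control and 11 in DR.

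The other genes differed less evenly in these cells. Pcna was found in 70.3% of control and 76% of DR several-gene cells, Mcm6 in 68.1% and 60%, and Dut in 65.9% and 72%. Hist1h1b was found in 52.7% and 16%, and Rrm1 in 49.5% and 16%. Ung was found in 11.0% of control and 44% of DR cells. Cdc6 was found in 17.6% of control cells and in 0 of 25 DR cells, which by the same floor of 3 cells allows up to 12%. With 25 DR cells each 4% is 1 cell, and depth before thinning was also higher in these cells, at medians of 19936 UMIs in control and 16560 in DR against 7151.5 and 5461 in other cells.

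Across maturation stages, read from at least 1 UMI of Cd27 or Itgam, the sum of the 37 genes was highest in control cells with Cd27 alone, an order that changed when stages were read at equal depth. The 37 genes summed to 2331 CPM in control and 909 in DR cells with Cd27 only, 1662 and 773 with both, 1107 and 893 with Itgam only, and 1031 and 827 with neither. With the stage read after thinning to 3000 UMIs the sums were 1778 and 793 (Cd27 only), 858 and 732 (both), 1063 and 814 (Itgam only) and 1807 and 930 (neither). Cells numbered 542 in control and 752 in DR with Cd27 only, 1086 and 961 with both, 2253 and 1556 with Itgam only, and 671 and 967 with neither. With the stage from all UMIs, Hist1h1b stood at 369, 146, 66.7 and 36.9 CPM over these stages in control, and at 16.2, 12.6, 12.8 and 4.85 in DR. Slbp stayed between 152 and 160 CPM in every control stage and between 143 and 152 in every DR stage. Mcm6 stood at 97.6 and 67.4 CPM in cells with Cd27 only and at 71.9 and 71.1 in cells with Itgam only.

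Among genes with at least 5 CPM in a stage, 32 of 36 were lower in DR in cells with Cd27 only (all genes 11.1%, median of the 36 -0.95) and 30 of 34 in cells with both (all genes 11.0%, median -1.03). In cells with Itgam only 9 of 29 were lower (all genes 9.18%, median -0.10), and in cells with neither 8 of 28 were lower (all genes 8.31%, median -0.20) and 1, Cdt1, was higher (all genes 5.48%). In the other stages 0 were higher, against 5.79% (Cd27 only), 6.54% (both) and 6.94% (Itgam only) of all genes. Since 9 of the 36 and 10 of the 34 reached 5 CPM only through control, counts over all 37 genes with no minimum are also given: 33 were lower with Cd27 only (all genes with UMIs in both libraries 9.29%), 33 with both (9.12%), 9 with Itgam only (7.43%) and 10 with neither (6.69%). The differences between stages were not tested. A stage read from all UMIs depends on depth, since a deep cell more often shows both genes. With the stage read after thinning, 28 of 35 were lower in cells with Cd27 only (all genes 9.24%), 5 of 22 with both (8.27%), 11 of 29 with Itgam only (9.37%) and 27 of 34 with neither (10.5%). By these counts the share lower was above that of Itgam only for Cd27 only under both readings. It was also above it for cells with both when all UMIs were used, and for cells with neither after thinning. For the reading after thinning, no count without a minimum was made, and genes that reached 5 CPM only through control were not counted apart. The stages of that reading are thus compared over unlike sets of genes.

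Several-gene cells made up 4.46% of control (2.85 to 6.61) and 1.36% of DR cells (0.656 to 2.49) with Cd27 only, and 0.923% (0.565 to 1.42) and 0.471% (0.189 to 0.967) with Itgam only. With the stage read after thinning these were 3.92% and 0.580% with Cd27 only and 0.984% and 0.303% with Itgam only. In cells with both they were 3.71% and 0.423%, but 0.658% and 0.272% after thinning. In cells with neither they were 1.47% and 0.458%, and 3.09% and 0.961% after thinning. The point value was lower in DR in each stage under both readings.

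**Figure D4:**
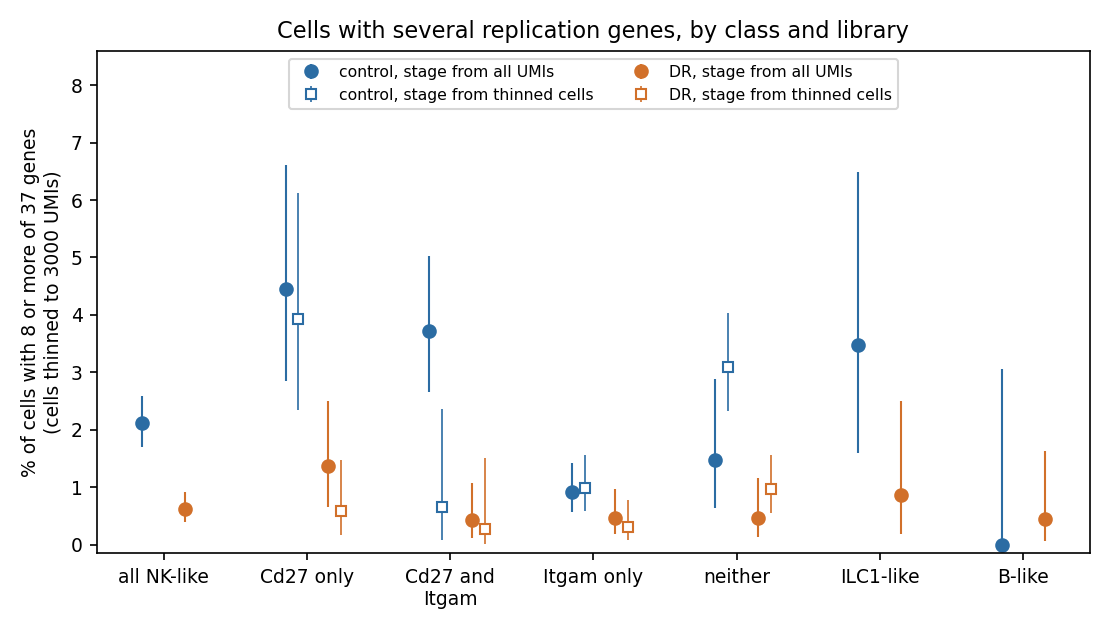
Share of cells with 8 or more of the 37 genes (y axis, %, cells thinned to 3000 UMIs) by cell class (x axis) and library, with exact 95% binomial intervals; filled circles use stages from all UMIs of a cell and open squares stages read after thinning. Control cells with Cd27 only stand highest at 4.46%, and the class with both genes drops from 3.71% to 0.658% when stages are read after thinning.

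ILC1-like cells, a related tissue-resident innate lymphocyte class (264 control and 355 DR cells, 8 of 8 ILC1 markers at 20 CPM in control), had few histone UMIs, and helicase genes above the NK-like level in control but not in DR. The 10 helicase loading genes summed to 387 CPM in control ILC1-like cells, against 320 in control NK-like cells, and to 224 in DR, against 258. Dut stood at 78.5 against 49.3 CPM in control. Hist1h1b, by contrast, stood at 2.85 against 130 CPM in control and 2.24 against 12 in DR, and Pclaf at 6.10 against 42.8 and 2.24 against 7.93. Several-gene cells were 9 of 259 in control (3.47%, 1.60 to 6.49) and 3 of 349 in DR (0.860%, 0.178 to 2.49). Of 25 genes with at least 5 CPM, 14 were lower in DR and 0 higher (all genes 8.98% and 3.99%), with a median of -0.58. Mcm5, for example, stood at 50.4 and 20.1 CPM (-1.32, -1.81 to -0.85). The cluster of dividing cells was classed as NK-like, and 10 of its 64 control and 3 of its 15 DR cells kept there held at least 3 ILC1 markers, so the NK-like class held some cells with ILC1 markers, and their part in the histone values of both classes was not tested.

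How much of any sum was RNA picked up from outside the cell was not estimated. B-like cells had lower levels than NK-like cells, but this class did not hold the cells with B markers that fell in the dividing cluster. Their 37 genes summed to 519 CPM in control (125 cells, median 8748 UMIs) and 684 in DR (456 cells, median 6944.5). Several-gene cells were 0 of 119 in control, which by the floor of 3 cells allows up to 2.52%, and 2 of 442 in DR (0.452%, 0.0548 to 1.62). Unlike in NK-like cells, the sum of the B-like class was not lower in DR, with those cells missing from it. The cells left out as other-lineage-marked had higher sums: the 53 in DR summed to 8305 CPM, and 15 of the 35 deep enough for thinning were several-gene cells. The 41 in control summed to 2920 CPM, and 0 of 7 were. B markers in these left-out cells summed to 6398 CPM in control and 6342 in DR, against 100 and 136 in NK-like cells. Values of the B-like class with such cells added were not computed. Near the limit, 17 control and 4 DR cells with 10% to 20% other-lineage UMIs were kept, and 3 and 1 of those left out had 20% to 30%. An unnamed cluster led by Batf3 and Cd3d summed to 996 CPM in control and 729 in DR, with 5 of 166 and 2 of 224 several-gene cells, and T-like cells of the DR library to 522 CPM, with 1 of 285.

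**Figure D5:**
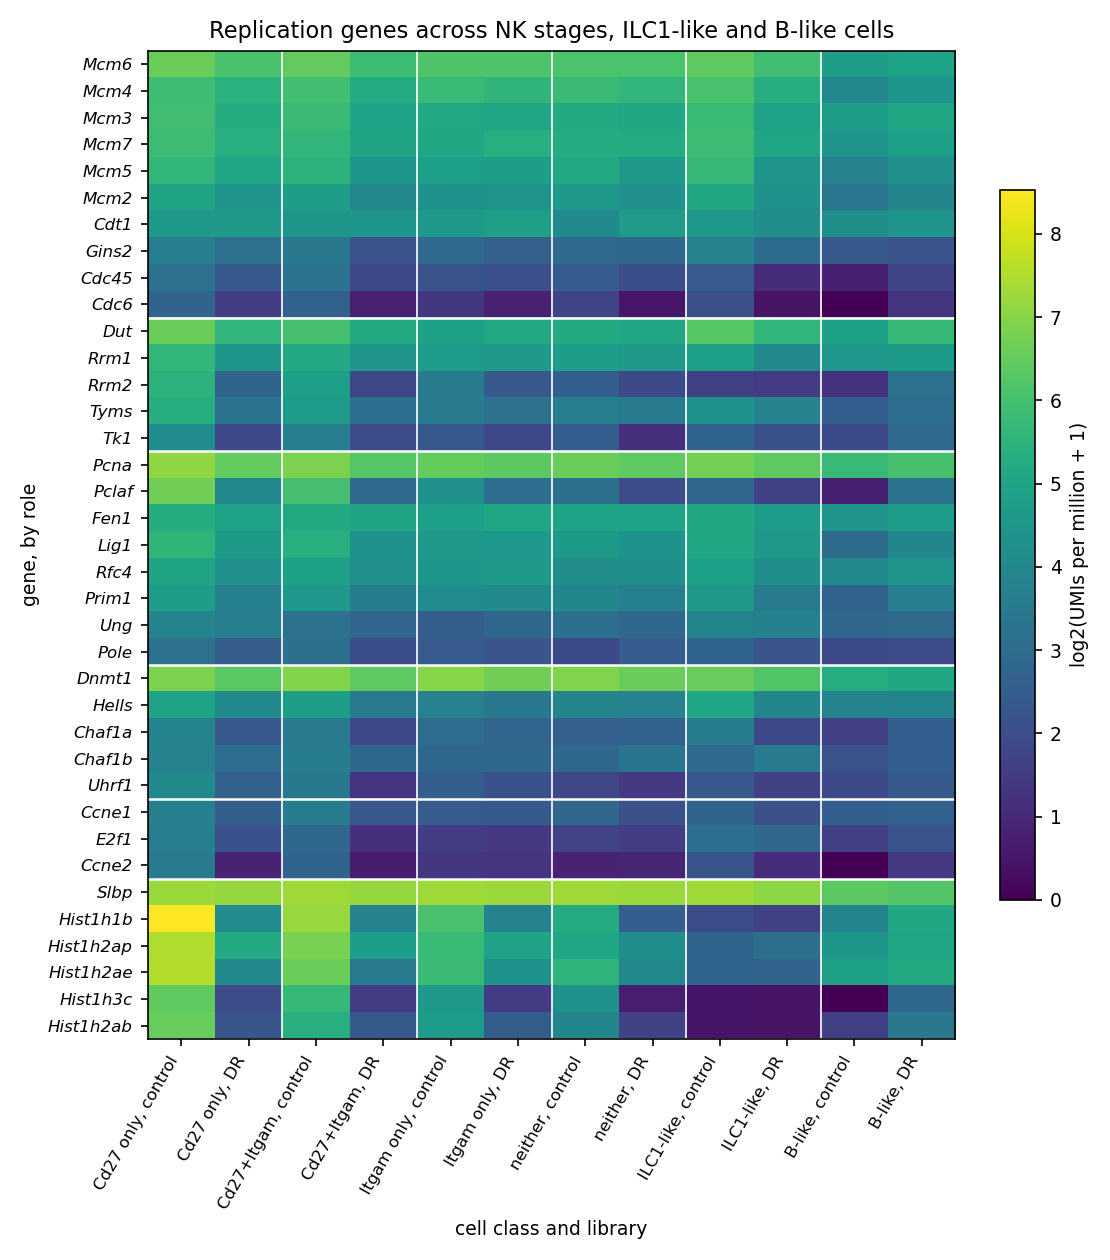
Level of the 37 genes (rows, by role) in NK-like stages, ILC1-like and B-like cells of each library (columns), as log2 of CPM plus 1. Control cells with Cd27 only are brightest in the histone rows (Hist1h1b at 369 CPM), and ILC1-like cells are dark in those rows (2.85 CPM) but not in the helicase rows.

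Genes of the same pathway outside the 37 differed less. Of 53 other replication genes 43 had at least 5 CPM, and 15 of them were lower in DR and 0 higher (all genes 9.42% and 5.99%), with a median of -0.16. With no minimum 23 of 53 were lower (all genes 8.59%). The largest differences were in Ccna2, the S phase cyclin (10.9 and 1.66 CPM, -2.72), the checkpoint adaptor Clspn (14.7 and 5.68, -1.37) and the histone chaperone Asf1b (20.4 and 8.12, -1.32). E2f2, a further E2F factor, was at 10.1 and 4.14 CPM (-1.28). Of 30 G2 and mitosis genes 18 of 19 with enough UMIs were lower, with a median of -1.85, but 11 of the 19 reached 5 CPM only through control. With no minimum 29 of 30 were lower (all genes 8.59%), and of the 8 at 5 CPM in both libraries 7 were. They included Nusap1 (19.0 and 2.52 CPM, -2.91), the division marker Mki67 (60.1 and 8.48, -2.82), the spindle motor Kif11 (15.1 and 2.21, -2.77) and Birc5 (25.5 and 4.26, -2.58). Of 12 NK effector and growth genes 2 were lower and 2 higher (all genes 9.42% and 5.99%).

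NK maturation genes also differed between the libraries. Of 12 NK stage genes 6 were lower and 5 higher in DR (all genes 9.42% and 5.99%). Cx3cr1 (133 and 23.8 CPM, -2.48), Kit (-1.30), Klrg1 (-1.003), Zeb2 (-0.53), S1pr5 (-0.51) and Itgam (-0.40) were lower, and Il7r (1.07), Ctla2a (1.01), Emb (0.98), Cd27 (0.59) and Tcf7 (0.32) higher. All but Kit of the lower genes are known to mark mature NK cells. A cluster led by Spp1 and Cx3cr1 held 583 control and 89 DR cells. The makeup of the NK-like class thus differed between the libraries, and its part in the replication gene values was not tested beyond the 4 stages. With those stages weighted equally the median log2 ratio of the replication genes was -0.59.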

How the data were processed

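The 2 deposited matrices held raw UMI counts in whole numbers, which the authors made with Cell Ranger (version 5.0.1 per the file headers, version 2.1.1 on mm10 per the submitters' processing notes; the conflict was not settled). Barcodes needed 500 genes or more and no more than 10% mitochondrial UMIs, which removed 215 control and 167 DR barcodes. Scrublet's automatic threshold marked 0 doublets in each library, so the top scores were called at 0.8% per 1000 cells (243 control, 364 DR), leaving 5244 and 5756 cells. No barcode held fewer than 501 UMIs, so free RNA was not estimated. The libraries were clustered together with scanpy 1.11.5 (2000 variable genes, 30 components, 15 neighbours, Leiden resolution 0.6), and clusters were named when 50% of a marker list, and no fewer than 3 markers, reached 20 CPM and 25% of the top cluster. The limit of 20% other-lineage UMIs and the doublet rule were set after the data were seen.

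Counts were summed per class and library and given as CPM. Levels have Poisson intervals, ratios conditional binomial intervals and shares Clopper-Pearson intervals, at 95%. The 37 genes and the lists were chosen with earlier results of these data known. All 37 genes could be named, with intervals for the 2 with most UMIs per role and the 3 at each end of ratio and concentration; other lists name up to 4 genes by largest log2 ratio, except that the further NK stage genes were named after their values were seen. Promoters came from RefSeq and transcripts from GENCODE, and protein sequences were not used here.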

Additional observations from a re-analysis of the deposited data

How the results depend on the processing

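For the 37 genes in NK-like cells, no median or called ratio changed sign under the alternatives; the other lists and the ILC1-like calls were not rerun under them. With other-lineage-marked cells kept, the median log2 ratio was -0.32 and 15 genes were lower. The DR share of several-gene cells was then 0.982% (1.55% in cells with neither Cd27 nor Itgam). With a minimum of 20 CPM, 15 of 21 genes were lower, and the share over all genes was not computed at that minimum. Control and DR shares were 1.64% and 0.336% thinned to 2000 UMIs, 3.61% and 1.82% thinned to 5000, 9.12% and 3.82% not thinned, 7.04% and 4.73% at 5 or more genes, and 1.254% and 0.297% at 12 or more. At 5 or more genes the control shares were 9.88% (Cd27 only), 8.26% (both), 5.81% (Itgam only), 6.80% (neither) and 12.4% (ILC1-like), and the DR shares 4.91%, 4.97%, 4.91%, 4.00% and 4.87%, with 1.81% in B-like cells. With the stage read after thinning, control shares were 0.658% (both) and 3.09% (neither), and the DR share was 0.580% (Cd27 only). The cause of these moves was not tested, apart from thinning and gene limits, which set how many genes a cell can show. Of the 32 single ratios, 20 moved beyond their interval with other-lineage-marked cells kept and 4 with stages weighted equally. Leaving out a replicate could not be done. No paired analysis was possible because each group is 1 library.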

Other observations

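Genes outside the 37 that stood highest in several-gene NK-like cells over other NK-like cells in both libraries, by the lower of the 2 log2 ratios among genes with at least 100 UMIs, were Hist1h3b, Esco2, Hist1h2af, Mxd3, Pbk, Neil3, E2f8, Ska1, Ccna2 and Mcm10. Hist1h3b had 4 UMIs in the several-gene cells and 0 in other cells in DR, so its place rests on control alone, and Hist1h3b and Hist1h2af share 60-base stretches with histone rows used to choose the cells. Esco2, which joins sister chromatids, had 298 UMIs in the 91 control several-gene cells and 5 in all other control cells of 3000 UMIs or more, and 23 and 2 in DR, counted before thinning. NK genes, of which those named here were chosen after their values were seen, also differed in these cells. The killing gene Prf1 was lower in them by log2 ratios of -1.40 in control and -1.28 in DR, the maturation genes Itgam by -1.37 and -1.76 and S1pr5 by -1.58 and -1.62. The transferrin receptor gene Tfrc was higher, at 1.60 and 1.62, and Nme1, a nucleotide kinase, at 0.95 and 1.19. Other genes of the same lists did not follow. Slc3a2 stood at -0.45 and -1.15 and Myc at -0.24 and -0.04. Cd27 stood at 0.14 and -0.40 and Il7r at 0.74 and -1.16, with opposite signs in the 2 libraries. The NK factor Eomes was lower, at -0.40 and -0.59. The cells were chosen by replication genes alone, and their higher depth moves with these values; its part was not tested.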
